A study of Mus musculus with 18 samples.

Results

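The mitochondrially encoded genes were taken as all genes whose GENCODE symbol starts with mt-, which gave 37 of the 57126 genes counted in 18 mouse mammary tumors. They comprised 13 protein-coding, 2 rRNA and 22 tRNA genes, and all were matched by identifier to the mitochondrial chromosome of GRCm39. A count in at least 1 tumor was found for 21 of the 37: all 13 protein-coding genes, both rRNA genes and 6 tRNA genes. The other 16, all tRNA genes, were at 0 in every tumor. The rule reads gene symbols alone.

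The study asked how 2 hotspot mutants of the tumor suppressor p53 differ in the mammary tumors that they give rise to. Total RNA was sequenced from 7 MaP R172H/- tumors, 5 MaP R245W/- tumors and 6 MaP -/- tumors, which carry no p53 in the recombined cells. All came from female F1 mice of BALB/c and C57BL6/J parents, whose mammary ducts were injected with adenovirus carrying Cre recombinase at 10 to 12 weeks of age. The virus reaches the cells that line the ducts, and RNA of a whole tumor also holds that of unrecombined cells with wild-type p53. A Rosa26LSL-TdTomato/+ reporter was carried by 3 of the MaP R172H/- and 3 of the MaP R245W/- mice and by no MaP -/- mouse. Only 4 mice gave the 6 MaP -/- tumors, because JM663 and JM833 gave 2 tumors each and JM779 and JM836 gave 1 each. For JM779 and JM836 the labels name the T1 tumor and the study marks the T2 tumor, which leaves the histology, but not the genotype, of both libraries uncertain. Ages at collection differed between mice and were not used here.

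All libraries were stranded total RNA libraries depleted of cytoplasmic and mitochondrial rRNA, and they held 23113578 to 37365062 counts per tumor. The MaP R172H/- libraries were read as 76-nt pairs on a HiSeq instrument, and the MaP R245W/- and MaP -/- libraries as 100-nt pairs on a NovaSeq instrument. Platform, read length and genotype therefore cannot be told apart in any comparison with the MaP R172H/- tumors. The same holds for molecular subtype. The study typed the MaP R172H/- tumors as luminal B or HER2-enriched and all tumors of the other groups as triple-negative. Trp53 was between 10.8 and 50.3 CPM (counts per 1000000 counts of the TMM-scaled library) in MaP R172H/-, between 9.09 and 59.0 CPM in MaP R245W/- and between 9.43 and 21.6 CPM in MaP -/- tumors, ranges that overlap. It was called higher in MaP R172H/- than in MaP -/- tumors (log2 fold change of 1.58 ± 0.31 (SE), edgeR FDR of 0.00794), and the other comparisons did not pass (0.95 ± 0.44 for MaP R245W/- against MaP -/- tumors and 0.60 ± 0.42 between the mutants, FDR of 0.426 and 0.384). Counts per gene do not show which allele was read. All 10 epithelial markers had counts in every tumor, with a summed level of 152 to 11673 CPM. Fewer cells of a type and less RNA per cell cannot be told apart in these bulk tumors.

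Mitochondrial DNA is a small circular genome present in many copies per cell. Both strands are transcribed by the polymerase POLRMT with the factors TFAM and TFB2M into long precursors, which are cut apart at the tRNAs that punctuate them. The protein-coding genes all encode subunits of the respiratory chain or of ATP synthase: the mt-Nd genes belong to complex I, mt-Cytb to complex III, mt-Co1 to mt-Co3 to complex IV, and mt-Atp6 and mt-Atp8 to ATP synthase. The rRNAs mt-Rnr1 (12S) and mt-Rnr2 (16S) and the tRNAs serve the translation of these proteins inside the organelle. Only mt-Nd6 and 8 of the tRNAs are encoded on the light strand. Pieces of mitochondrial DNA have also been copied into nuclear chromosomes, where they are known as nuclear mitochondrial sequences.

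A nearly complete copy of part of the mitochondrial genome bears on which of these genes could be counted. In GRCm39, positions 6390 to 11042 of the mitochondrial chromosome matched chr1:24650616-24655269 on the minus strand over 4654 aligned bases with 99.936% identity. Inside this stretch lay 6 protein-coding genes (mt-Co2, mt-Atp8, mt-Atp6, mt-Co3, mt-Nd3 and mt-Nd4l) and 5 tRNA genes. Of mt-Nd4, 63.6% of the length lay inside it, and of mt-Co1, 31.3%. The other 5 protein-coding genes, mt-Nd1, mt-Nd2, mt-Nd5, mt-Nd6 and mt-Cytb, and both rRNA genes lay outside. A less similar copy on chromosome 2 (chr2:22477300-22480546, 97.362% identity) covered the end of mt-Nd2 and all of mt-Co1 and mt-Co2.

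The stretches in which the mitochondrial genome and the chromosome 1 copy differ are shown. A read wholly inside the copy can be assigned by its own sequence only there, and mates outside the copy were not considered. There were 2 differences inside the match, a substitution in mt-Nd3 (T9461C, the mitochondrial base first, numbered from 1 on the mitochondrial chromosome) and a longer run of A in mt-Tr. The remaining difference, A6393T, lay within the last bases at the edge of the match. Capitals mark the differing base in the first pair and the A run in the second pair, which held 8 A in the mitochondrial genome and 9 in the copy. Each stretch is read in the direction of mt-Nd3 and mt-Tr, for the mitochondrial genome from chrM:9441-9481 and chrM:9808-9848 (plus strand) and for the copy from chr1:24652178-24652218 and chr1:24651810-24651850 (minus strand).
mt-Nd3, mitochondrial genome: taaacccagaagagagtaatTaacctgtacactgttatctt
mt-Nd3, chromosome 1 copy: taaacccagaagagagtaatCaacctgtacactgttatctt
mt-Tr, mitochondrial genome: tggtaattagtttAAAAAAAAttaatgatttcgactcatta
mt-Tr, chromosome 1 copy: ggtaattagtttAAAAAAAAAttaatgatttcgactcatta
The mitochondrial haplotype of the mice was not analysed here, and GRCm39 gives only the reference sequence.

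Every window of 76 or 100 bases in a gene was looked up in the nuclear stretches that matched the mitochondrial genome, as a single read without its mate. mt-Co2, mt-Atp8, mt-Atp6, mt-Co3 and mt-Nd4l had no window that occurs once, and mt-Nd3 had 3 at either length. All windows of mt-Rnr1, mt-Nd1, mt-Nd6 and mt-Cytb were unique at both lengths. Of the windows in mt-Co1, 60.6% were unique at 76 bases and 69.2% at 100 bases, and in mt-Nd4 38.5% and 39.2%. The tRNA genes are 59 to 75 bases long, so none holds a whole window of either read length.

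The 37 genes took 1.36% to 3.76% of all counts in a tumor. Their share was 2.52% ± 0.55 (SD, n = 7) in MaP R172H/-, 1.84% ± 0.353 (SD, n = 5) in MaP R245W/- and 2.35% ± 0.756 (SD, n = 6) in MaP -/- tumors, and the 3 ranges overlapped. Most of these counts were rRNA that depletion had left behind. The 2 rRNA genes took 61.4% ± 4.27, 68.4% ± 4.75 and 73.3% ± 3.55 (SD) of the mitochondrial counts in the 3 groups, in the same order.

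The protein-coding genes showed a different pattern from the rRNA genes. Their share of all counts was between 0.694% and 1.14% in MaP R172H/- tumors (median 1.03%). In MaP R245W/- tumors it was 0.482% in JM1233, 0.767% in JM1564, 0.606% in RM0014, 0.478% in JM1126 and 0.54% in JM1133, and in MaP -/- tumors it was between 0.506% and 0.846% (median 0.577%). Among the MaP R172H/- tumors, YZ10 (0.694%) lay within the ranges of both other groups and YZ6 (0.805%) within that of the MaP -/- tumors, and the other 5 lay above all tumors of both groups. The mean shares were 0.959% ± 0.166, 0.575% ± 0.12 and 0.608% ± 0.122 (SD), a log2 ratio of 0.66 for MaP R172H/- over MaP -/-, 0.74 for MaP R172H/- over MaP R245W/- and -0.08 for MaP R245W/- over MaP -/- tumors. These ratios are descriptions without a test.

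**Figure D1:**
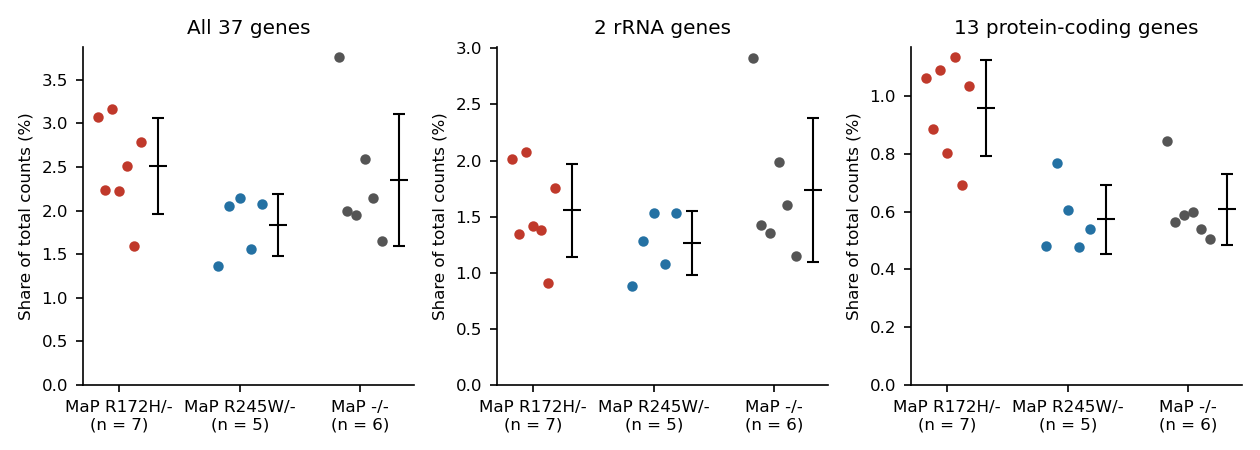
Share of total counts (%) of all 37 mitochondrially encoded genes, the 2 rRNA genes and the 13 protein-coding genes in each tumor (points), with the mean and SD of each group in black. The protein-coding share lies between 0.694% and 1.14% in the MaP R172H/- tumors, and YZ10 and YZ6 among them lie within the range of the MaP -/- tumors. The rRNA shares of the 3 groups overlap as well.

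Within the protein-coding genes the sum was carried by mt-Co1 and by genes outside the chromosome 1 copy. The 5 genes outside the copy took 0.228% ± 0.0558 of all counts in MaP R172H/-, 0.0805% ± 0.0201 in MaP R245W/- and 0.11% ± 0.0268 in MaP -/- tumors (SD), and the lowest MaP R172H/- tumor, at 0.156%, lay above the highest of the other groups, at 0.146%. The 6 genes inside the copy together took only 0.000319% ± 0.000107, 0.00226% ± 0.000529 and 0.00243% ± 0.000376 (SD).

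Compared per length, as CPM on total counts divided by the length in kilobases, the genes spanned several orders of magnitude. Among the protein-coding and rRNA genes, the order over all 18 tumors was mt-Rnr2 (median 8098), mt-Co1 (3315), mt-Rnr1 (1544), mt-Cytb (486), mt-Nd1 (447), mt-Nd5 (105), mt-Nd2 (69.6), mt-Nd4 (59.5) and mt-Nd6 (40.9). The tRNA gene mt-Tp, at 41.3, lay between mt-Nd4 and mt-Nd6. Neighbours in this order overlapped in range, for example mt-Cytb (213 to 1238) and mt-Nd1 (244 to 1039.8). The order of some neighbours differed between the groups. By group medians mt-Nd1 was above mt-Cytb and mt-Nd4 above mt-Nd2 in MaP R245W/- and MaP -/- tumors, whereas in MaP R172H/- tumors mt-Nd6 (83.1) was above mt-Nd4 (63.5). The full length was used for every gene. Of mt-Nd4 63.6% and of mt-Co1 31.3% of the length lies inside the copy, so their places in these orders are uncertain.
The genes inside the copy followed below, at medians of 17.2 for mt-Co3, 7.91 for mt-Co2, 1.47 for mt-Atp6, 0.811 for mt-Nd3 and 0.419 for mt-Atp8, and mt-Nd4l had 0 to 3 counts in a tumor. By group, the median of mt-Co3 was 1.88 in MaP R172H/-, 19.4 in MaP R245W/- and 18.5 in MaP -/- tumors. In MaP R245W/- tumors its range (11.9 to 25.6) overlapped with those of mt-Nd6 (22.2 to 40.5) and mt-Nd2 (24.3 to 35.6). In counts, mt-Co1 had 98570 to 220673 in a tumor and mt-Co3, a subunit of the same complex, 25 to 751. The genes at low levels were neighbours in the genome and belonged to complexes I, IV and V alike.

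**Figure D2:**
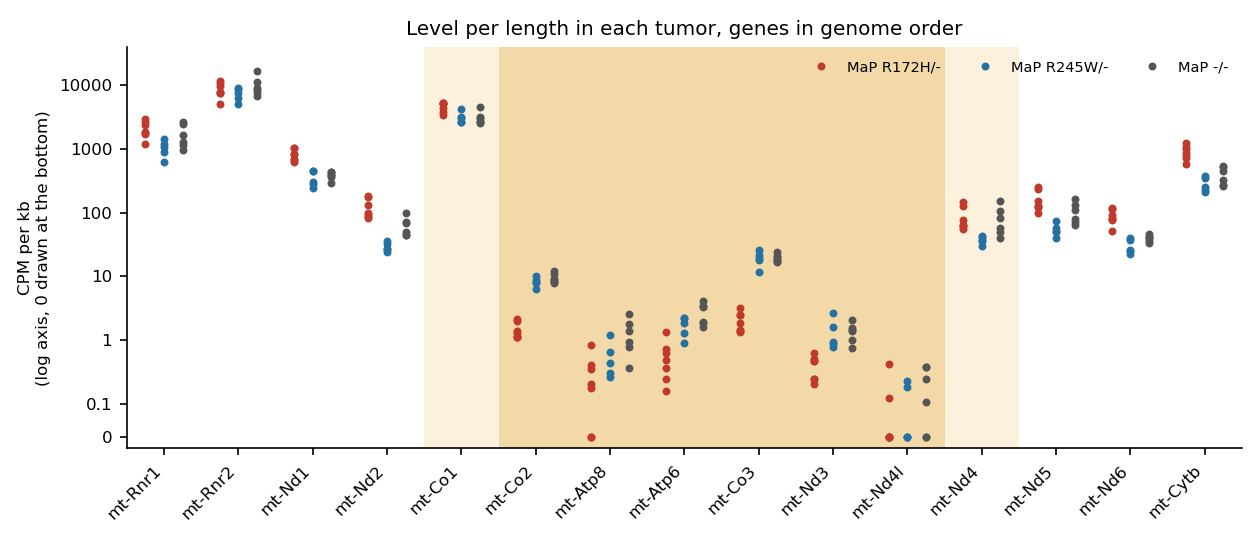
CPM per kb, on total counts (log axis, a value of 0 drawn at the bottom) of the 2 rRNA and 13 protein-coding genes in each tumor, in the order of the genes along the mitochondrial genome. Dark shading marks the 6 genes wholly inside the chromosome 1 copy and light shading mt-Co1 and mt-Nd4, which lie partly inside. By the median over all 18 tumors the 6 dark-shaded genes sit below the others, at 17.2 at most. The range of mt-Co3 overlaps with those of mt-Nd2 and mt-Nd6.

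Annotated pseudogenes in the nuclear copies held few counts as well. For mt-Co3, the copy Gm28437 had 90 to 265 counts in MaP R172H/-, 499 to 826 in MaP R245W/- and 368 to 578 in MaP -/- tumors. For mt-Co2, the copy Gm28661 had 45 to 142, 243 to 362 and 186 to 301 counts. With all annotated copies added to mt-Co3, the median level per length was 10.7 in MaP R172H/-, 46.1 in MaP R245W/- and 38.5 in MaP -/- tumors, against 5034, 3059 and 2923 for mt-Co1 with its copies. So neither the mitochondrial genes inside the copy nor their nuclear copies held counts near those of mt-Co1. How reads with several equally good positions were treated between alignment and the deposited table is not given in the sources used here, and its part in these values was not tested.

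The first comparison asked how MaP R172H/- tumors differed from tumors without p53. Of the 37 genes, 13 passed edgeR's filter on low counts, and 7 passed edgeR's quasi-likelihood test at a Benjamini-Hochberg FDR below 0.05 over all 20954 genes tested. Outside the chromosome 1 copy, mt-Nd1, mt-Nd2, mt-Nd6 and mt-Cytb were higher in MaP R172H/- tumors by 2.07- to 2.45-fold. Inside it, mt-Co2, mt-Atp6 and mt-Co3 were lower by 4.45- to 9.09-fold. Over all genes, 3.67% were called higher and 4.73% lower. The median log2 fold change was 0.69 over the 10 protein-coding genes tested and 0.00 over all genes tested. Values are CPM on TMM-scaled library sizes.

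The core complex I subunit mt-Nd1 was at 565 to 1054 CPM in MaP R172H/- tumors (median 806) and at 279 to 391 CPM in MaP -/- tumors (median 356). The groups did not overlap, and the log2 fold change was 1.17 ± 0.17 (SE), with an FDR of 0.0014. Another complex I subunit, mt-Nd2, was at 82.0 to 199 CPM (median 110.1) and 45 to 88.1 CPM (median 57.4). Its groups overlapped through YZ10 at the low end and JM833-T1 at the high end, and the log2 fold change was 1.05 ± 0.24 (SE), with an FDR of 0.0177. When the tumors of 1 mouse were summed, the FDR for mt-Nd2 was 0.0505 at a log2 fold change of 1.06.

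For mt-Cytb, the only mitochondrially encoded subunit of complex III, MaP R172H/- tumors were at 644 to 1500 CPM (median 960.5) and MaP -/- tumors at 308 to 606 CPM (median 393). All MaP R172H/- tumors lay above all MaP -/- tumors, and the log2 fold change was 1.3 ± 0.23 (SE), with an FDR of 0.00406. The light-strand gene mt-Nd6 was at 25.8 to 62.3 CPM (median 41.4) and 15.7 to 24.2 CPM (median 19.3), again without overlap. Its log2 fold change was 1.24 ± 0.20 (SE), with an FDR of 0.00228. The last 14 bases of mt-Nd5 lie opposite mt-Nd6, and the strand setting of the counting is not given in the sources used here. The 3 genes without overlap compare with 2.01% of all genes tested that were higher without overlap.

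Among the genes that did not pass the test, mt-Nd5 was at 173 to 450 CPM in MaP R172H/- (median 224) and 121 to 253 CPM in MaP -/- tumors (median 171). Its log2 fold change was 0.74 ± 0.26 (SE), with an FDR of 0.0954. The catalytic subunit of cytochrome c oxidase, mt-Co1, was at 5047 to 8764 CPM (median 7183) and 3327 to 7105 CPM (median 4435). Only YZ10, YZ3 and YZ6 of the MaP R172H/- tumors lay below the highest MaP -/- tumor, JM836-T1, and the log2 fold change of 0.64 ± 0.23 (SE) had an FDR of 0.105. A DESeq2 Wald test, which called 11.4% of all genes it tested, called mt-Co1 higher at an adjusted p of 0.0305. For mt-Nd4, at 73.0 to 190 CPM and 57.5 to 179 CPM, the log2 fold change was 0.20 ± 0.31 (SE), with an FDR of 0.735.

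Some tumors were high in several complex I genes together. YZ4 and YZ7 had the highest mt-Nd5 (428 and 450.3 CPM) and the highest mt-Nd4 (189.7 and 188 CPM) of all 18 tumors, and JM833-T1 had the highest values among MaP -/- tumors (253 and 179 CPM). JM833-T1 also had the highest summed level of 10 adipocyte markers, 7041 CPM against 24.0 to 815 CPM in the other tumors. YZ4 had 701 CPM and YZ7 58.5 CPM, and the 815 CPM were those of JM833-T2. The part of these marker levels in the mitochondrial values was not tested. Without both tumors of mouse JM833, 7 genes passed the test, the same 4 higher and 3 lower.

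The rRNA genes did not pass the test. The small-subunit rRNA mt-Rnr1 was at 1086 to 2787 CPM in MaP R172H/- (median 1767) and 946 to 2533 CPM in MaP -/- tumors (median 1304), with a log2 fold change of 0.39 ± 0.28 (SE) and an FDR of 0.401. The large-subunit rRNA mt-Rnr2 was at 7556 to 17325 CPM (median 12832) and 10971 to 26806 CPM (median 12752), with a log2 fold change of -0.13 ± 0.28 (SE) and an FDR of 0.815. These levels are what rRNA depletion left. The remainder of cytoplasmic rRNA was between 0.0581% and 0.24% of counts in MaP R172H/-, 0.0447% and 0.0837% in MaP R245W/- and 0.0485% and 0.116% in MaP -/- tumors, and its part in the mitochondrial rRNA values was not tested.

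The lower genes all lay inside the chromosome 1 copy. The complex IV subunit mt-Co3 had 25 to 71 counts in MaP R172H/- tumors (1.02 to 2.35 CPM, median 1.45) and 361 to 508 counts in MaP -/- tumors (11.5 to 19.1 CPM, median 13.8). Its log2 fold change was -3.18 ± 0.26 (SE), with an FDR of 3.09e-05. The subunit mt-Co2, which takes electrons from cytochrome c, had 18 to 38 counts (0.74 to 1.47 CPM) and 147 to 226 counts (5.21 to 8.51 CPM), with a log2 fold change of -2.62 ± 0.24 (SE) and an FDR of 8.1e-05. The ATP synthase subunit mt-Atp6 had 3 to 21 counts (0.106 to 0.907 CPM) and 34 to 75 counts (1.12 to 2.82 CPM), with a log2 fold change of -2.15 ± 0.42 (SE) and an FDR of 0.00736. No MaP R172H/- tumor overlapped with a MaP -/- tumor in any of the 3, where 2.62% of all genes tested were lower without overlap. Adjacent ends are shared by mt-Atp8 and mt-Atp6 over 43 bases, so their counts cannot be fully told apart.

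The remaining protein-coding genes inside the copy did not pass the filter on low counts. mt-Nd3 had 2 to 6 counts in MaP R172H/- and 7 to 18 in MaP -/- tumors, mt-Atp8 0 to 4 and 2 to 14, and mt-Nd4l 0 to 3 in both groups. The level of mt-Co3 relative to mt-Co1 differed between the read lengths. As counts per 1000 mt-Co1 counts, mt-Co3 was between 0.139 and 0.327 in the tumors read at 76 nt and between 2.31 and 4.06 in the tumors read at 100 nt. The read length and the genotype cannot be told apart here.

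Of 7 pseudogenes of the chromosome 1 and chromosome 2 copies that were tested, 4 were called lower in MaP R172H/- against MaP -/- tumors, where 4.73% of all genes tested were called lower. Gm28437 (copy of mt-Co3) had a log2 fold change of -1.34 and an FDR of 0.0136. Gm28661 (copy of mt-Co2) had a log2 fold change of -1.20 and an FDR of 0.0342, and Gm29216 (copy of the end of mt-Co1) of -1.14 with an FDR of 0.025. The mt-Co2 copy on chromosome 2, Gm13341, had the largest change, -3.23 with an FDR of 3.09e-05, at 5 to 11 counts in MaP R172H/- and 70 to 116 in MaP -/- tumors. By contrast Atp6-ps (copy of mt-Atp6, -0.33, FDR of 0.539), Gm28438 (copy of mt-Nd3, -0.56, FDR of 0.285) and Gm13340 (copy of mt-Co1 on chromosome 2, -0.38, FDR of 0.174) did not pass the test. With the counts of the copies added, mt-Co3 and mt-Co2 still passed the test, with log2 fold changes of -1.94 and -1.84, while mt-Atp6 did not (-0.68, FDR of 0.171). These genes share reads with the mitochondrial genes, and their values are uncertain for the same reason.

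**Figure D3:**
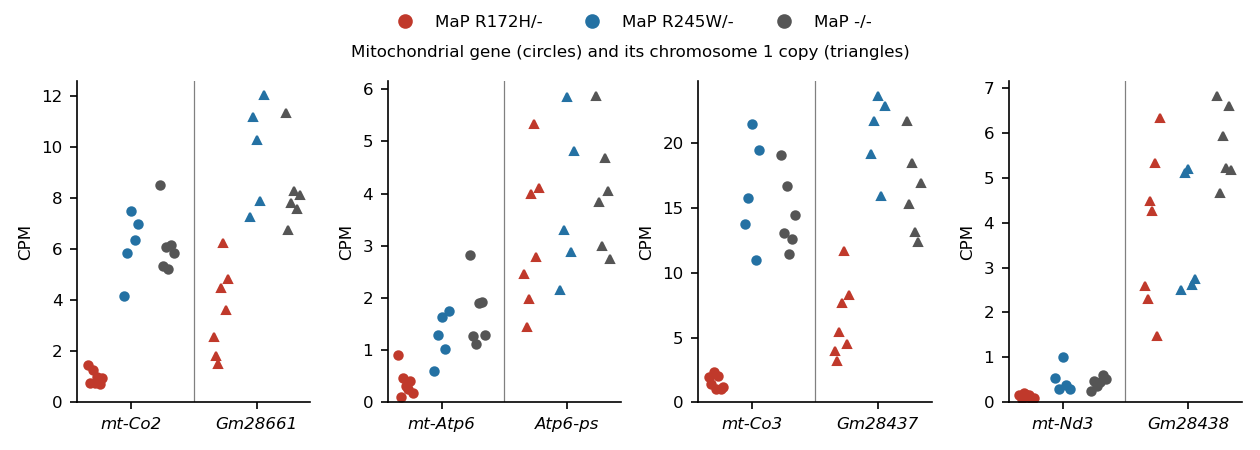
CPM of 4 mitochondrial genes inside the chromosome 1 copy (circles) and of the pseudogene that copies each (triangles), in each tumor. For mt-Co2 and mt-Co3 both the mitochondrial gene and its copy lie lowest in the MaP R172H/- tumors, and for mt-Atp6 and mt-Nd3 the copies of the 3 groups overlap.

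Few tRNA counts were found. The proline tRNA mt-Tp (chrM:15356-15422, minus strand) was the only tRNA gene with a median of 10 counts or more, and its sequence is shown because it is the tRNA that could be tested, together with that of the methionine tRNA mt-Tm (chrM:3845-3913, plus strand), which was chosen after its values were seen.
mt-Tp: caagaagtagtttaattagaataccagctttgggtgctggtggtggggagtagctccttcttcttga
mt-Tm: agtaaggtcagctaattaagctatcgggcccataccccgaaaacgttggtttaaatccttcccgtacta
mt-Tp had 46 to 178 counts in MaP R172H/-, 23 to 176 in MaP R245W/- and 40 to 165 in MaP -/- tumors, and it did not pass the test in any comparison (log2 fold change of 0.43 ± 0.41 (SE) and FDR of 0.555 for MaP R172H/- against MaP -/- tumors). mt-Tm had 5 to 10 counts in every MaP R172H/- tumor and 0 in all 11 other tumors, where a count of 0 allows up to 3 counts in a library. It did not pass the filter on low counts. The cysteine tRNA mt-Tc had 2 to 7 counts in MaP R172H/- tumors and 0 to 2 in the others, and mt-Tv, mt-Tn and mt-Tg had 1 count in 1 tumor each. All tRNA genes are shorter than a read of either platform, and platform and genotype cannot be told apart.

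**Figure D4:**
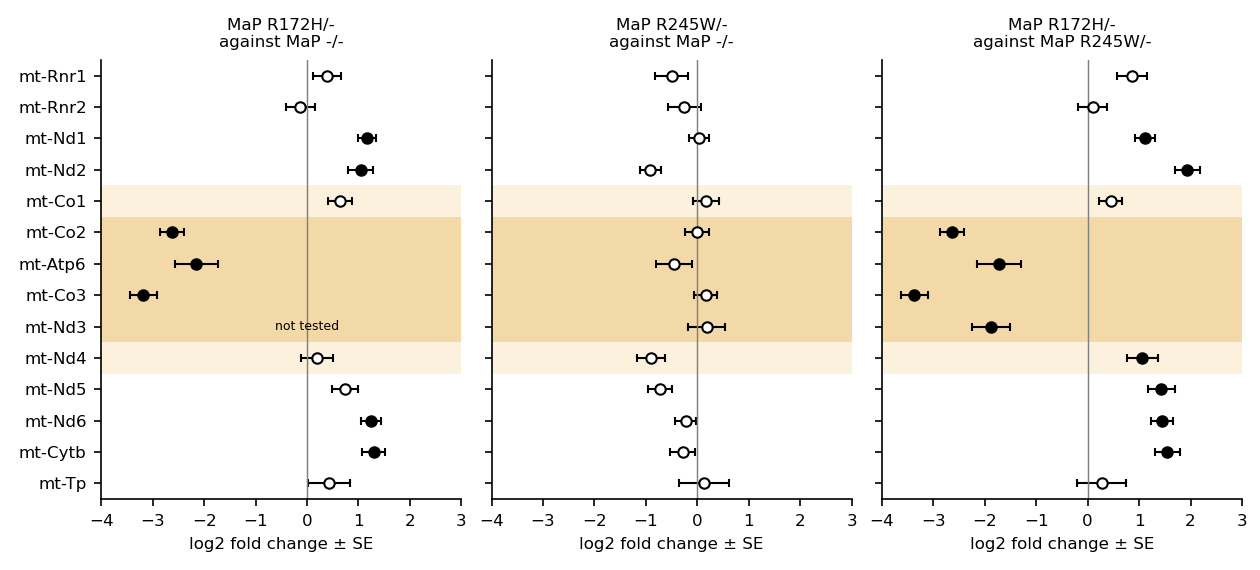
log2 fold change ± SE of each mitochondrially encoded gene that could be tested, in genome order, in the 3 comparisons. Filled points passed an FDR of 0.05, dark shading marks genes wholly inside the chromosome 1 copy and light shading genes partly inside. In both comparisons with MaP R172H/- tumors the unshaded mt-Nd1, mt-Nd2, mt-Nd6 and mt-Cytb lie to the right and the dark-shaded genes to the left.

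The second comparison asked how MaP R245W/- tumors differed from MaP -/- tumors, both read on the NovaSeq instrument at the same length. No mitochondrially encoded gene passed edgeR's test among the 14 tested, and neither did any of the 21452 genes tested (0%). At an unadjusted p below 0.05 there were 3 of the 14 genes and 2527 of all genes (11.8%). A DESeq2 Wald test called 1 of the 14, mt-Nd2 lower, and 424 of 24838 genes (1.71%). The median log2 fold change was -0.24 over the 14 genes and 0.02 over all genes tested.

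The 3 genes below an unadjusted p of 0.05 were complex I subunits with lower values in MaP R245W/- tumors. mt-Nd2 was at 26.9 CPM in JM1233, 34.8 in JM1564, 39.6 in RM0014, 33.3 in JM1126 and 28.9 in JM1133, and at 45 to 88.1 CPM in MaP -/- tumors. The groups did not overlap, as for 1.32% of all genes tested. The log2 fold change was -0.92 ± 0.20 (SE), with an FDR of 0.33 by edgeR's quasi-likelihood test and of 0.00756 by DESeq2. mt-Nd4 was at 47.5 to 62.1 CPM against 57.5 to 179 CPM, with a log2 fold change of -0.90 ± 0.28 (SE) and an FDR of 0.36. mt-Nd5 was at 83.5 to 139.7 CPM against 121 to 253 CPM, with a log2 fold change of -0.72 ± 0.23 (SE) and an FDR of 0.36. Both overlapped between the groups.

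For the other genes the estimates lay nearer to 0 with SEs of similar size. mt-Nd1 differed by 0.03 ± 0.20, mt-Co1 by 0.17 ± 0.26, mt-Cytb by -0.28 ± 0.24 and mt-Nd6 by -0.23 ± 0.21 on the log2 scale (SE). The genes inside the copy were at -0.01 ± 0.23 for mt-Co2, 0.16 ± 0.22 for mt-Co3, -0.46 ± 0.35 for mt-Atp6 and 0.18 ± 0.37 for mt-Nd3. The rRNAs were at -0.50 ± 0.32 for mt-Rnr1 and -0.25 ± 0.33 for mt-Rnr2, with an FDR of 0.544 and 0.774. A sum of 16 skeletal muscle markers was at 1552 CPM in JM1233 and 253 CPM in JM1133, and at 11.3 to 78.4 CPM in the other 16 tumors. Of the 16 markers, 11 had counts in every tumor, and Tnnc2 was at 0 in all MaP R172H/- tumors. No mitochondrially encoded gene passed the test without these 2 tumors either.

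The third comparison set the mutants against each other in a fit of all 18 tumors. Of 14 mitochondrially encoded genes tested, 6 were higher and 4 lower in MaP R172H/- than in MaP R245W/- tumors, where 2.91% of the 22481 genes tested were called higher and 6.49% lower. Groups did not overlap for the 6 higher genes and for 3 of the 4 lower genes, against 1.78% and 4.05% of all genes tested. The median log2 fold change was 1.06 over the 11 protein-coding genes tested and 0.00 over all genes. The MaP R172H/- values are those already given, so the comparison is not independent of the first.

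The largest rise was that of mt-Nd2, with a log2 fold change of 1.94 ± 0.25 (SE), 3.83-fold, and an FDR of 9.23e-05. mt-Cytb was at 237 CPM in JM1233, 411 in JM1564, 461 in RM0014, 307 in JM1126 and 338 in JM1133, all below the lowest MaP R172H/- tumor at 644 CPM, with a log2 fold change of 1.55 ± 0.24 (SE) and an FDR of 0.00056. The complex I genes mt-Nd6 (1.44 ± 0.22, FDR of 0.000418), mt-Nd5 (1.43 ± 0.27, FDR of 0.00222) and mt-Nd1 (1.11 ± 0.20, FDR of 0.00154) rose by 2.17- to 2.72-fold. mt-Nd4 rose by 2.09-fold (1.06 ± 0.30, FDR of 0.033). This last call was lost without YZ4, YZ7, JM1233, RM0014, JM1126 or JM1133, each left out on its own, and with a skeletal muscle score as covariate, at an FDR of 0.0533 to 0.0798. It was also lost with JM1233 and JM1133 both left out, and its highest FDR over all 29 settings was 0.138.

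Inside the chromosome 1 copy, mt-Co3 had 462 counts in JM1233, 511 in JM1564, 751 in RM0014, 344 in JM1126 and 511 in JM1133, all above the 25 to 71 counts of the MaP R172H/- tumors. Its log2 fold change was -3.37 ± 0.26 (SE), 10.3-fold lower, with an FDR of 6.96e-07. mt-Co2 (-2.64 ± 0.24, FDR of 3.11e-06), mt-Nd3 (-1.88 ± 0.36, FDR of 0.00312) and mt-Atp6 (-1.73 ± 0.42, FDR of 0.0159) were lower as well. With the copies added, mt-Co3 and mt-Co2 still passed the test, whereas mt-Atp6 (-0.52, FDR of 0.322) and mt-Nd3 (-0.06, FDR of 0.924) did not. mt-Co1, 0.45 ± 0.22 with an FDR of 0.216, mt-Rnr1, 0.86 ± 0.30 with an FDR of 0.0742, and mt-Rnr2, 0.09 ± 0.28 with an FDR of 0.868, did not pass. On total counts, without TMM, mt-Rnr1 passed at a log2 fold change of 1.0 and an FDR of 0.0408. It also passed a DESeq2 Wald test at an adjusted p of 0.0339, where 12.4% of all genes were called.

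Ratios between genes within a tumor do not depend on library scaling, and they are given as a description. The ratio of mt-Rnr2 to mt-Rnr1 counts, the rRNAs that lie next to each other in the genome, was between 6.22 and 7.26 in MaP R172H/-, between 10.4 and 13.5 in MaP R245W/- and between 7.58 and 11.7 in MaP -/- tumors. No MaP R172H/- tumor reached the lowest of the others, JM833-T1. The ratio of mt-Nd2 to mt-Nd1 counts was between 0.0774 and 0.108 in MaP R245W/-, between 0.13 and 0.189 in MaP R172H/- and between 0.125 and 0.247 in MaP -/- tumors, so that the MaP R245W/- tumors lay below all others. For mt-Co1 over mt-Nd1 the groups overlapped, at 7.96 to 10.6, 11.3 to 20.1 and 9.52 to 18.9 for MaP R172H/-, MaP R245W/- and MaP -/- tumors, although MaP R172H/- and MaP R245W/- did not overlap with each other. Of the windows in mt-Co1, 60.6% were unique at 76 bases and 69.2% at 100 bases, and in mt-Nd1 all were. Read length and genotype cannot be told apart in the ratios of the MaP R172H/- tumors.

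**Figure D5:**
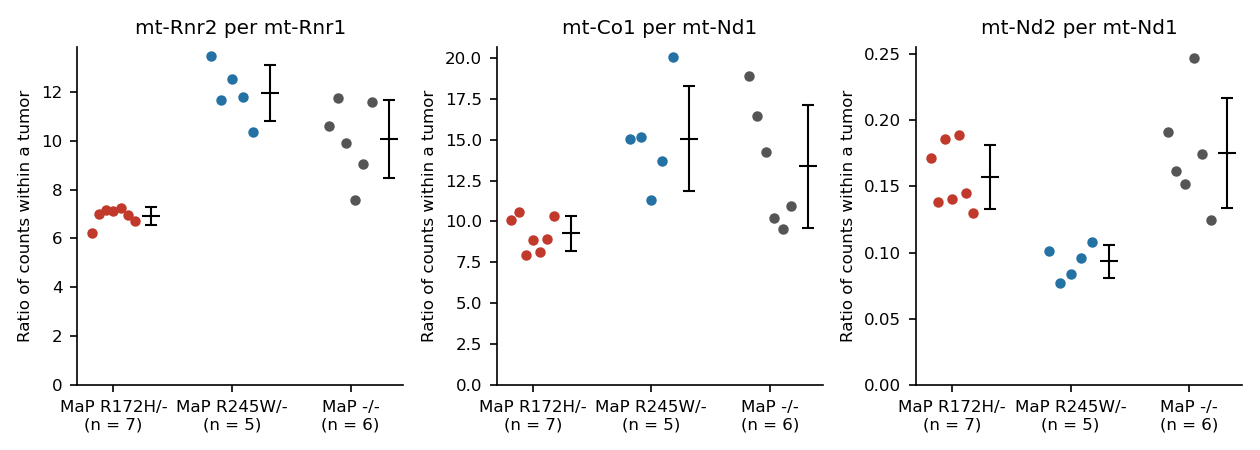
Ratio of counts of 2 mitochondrially encoded genes within each tumor (points), with the mean and SD of each group in black. The mt-Rnr2 to mt-Rnr1 ratio is lowest in the MaP R172H/- tumors (6.22 to 7.26) and the mt-Nd2 to mt-Nd1 ratio lowest in the MaP R245W/- tumors (0.0774 to 0.108).

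The nuclear genes that maintain and transcribe mitochondrial DNA were compared in the same fits. In MaP R172H/- against MaP -/- tumors, 2 of 19 were higher and none lower, where 3.67% of all genes tested were higher and 4.73% lower. These were the polymerase Polrmt, at 30.1 ± 6.72 against 17.9 ± 3.47 CPM (SD, n = 7 and 6; log2 fold change of 0.77 ± 0.19 (SE), FDR of 0.0221), and the transcription factor Tfb2m, at 18.8 ± 3.54 against 11.9 ± 2.06 CPM (0.68 ± 0.17 (SE), FDR of 0.0271). The median log2 fold change of the 19 was -0.08. Against MaP R245W/- tumors none of the 19 passed the edgeR test. An unadjusted p below 0.05 was found for 6 of them and for 25.9% of all genes, and the smallest p values were those of Mterf3 (-0.53 ± 0.16 (SE), FDR of 0.051) and Tfb2m (0.52 ± 0.18 (SE), FDR of 0.0836).

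Of 21 processing and stability genes tested, 3 were lower in MaP R172H/- than in MaP R245W/- tumors, against 6.49% of all genes tested. They were Grsf1, which binds RNA in mitochondrial RNA granules (-0.89 ± 0.20 (SE), FDR of 0.009), the poly(A) polymerase Mtpap (-0.58 ± 0.17 (SE), FDR of 0.037) and Trnt1, which adds CCA ends to tRNAs (-0.53 ± 0.16 (SE), FDR of 0.0408). The difference from the comparison with MaP -/- tumors, in which none of the 21 passed and 6 had an unadjusted p below 0.05 (24.7% of all genes did), was not tested. There the smallest p values were those of Fastk (0.54 ± 0.18 (SE), FDR of 0.0824) and Trnt1 (-0.40 ± 0.14 (SE), FDR of 0.0872). Of 17 RNA modification genes, Trmt5, a tRNA methyltransferase, fell in MaP R172H/- relative to MaP R245W/- tumors (-0.67 ± 0.19 (SE), FDR of 0.0365), and none passed against MaP -/- tumors, where 5 of the 17 and 24.7% of all genes had an unadjusted p below 0.05 and Mrm3 (0.57 ± 0.17 (SE), FDR of 0.0581) and Trmt5 (-0.54 ± 0.18 (SE), FDR of 0.0823) had the smallest p. The 1 of 17 called between the mutants stands beside 6.49% of all genes called lower there.

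Among 20 mitochondrial tRNA synthetases, Sars2 (0.68 ± 0.20 (SE), FDR of 0.046) and Vars2 (0.62 ± 0.18 (SE), FDR of 0.0473) rose in MaP R172H/- relative to MaP -/- tumors and Lars2 (-0.93 ± 0.21 (SE), FDR of 0.0145) fell. These 2 higher and 1 lower stand beside 3.67% and 4.73% of all genes tested. Lars2, the leucyl-tRNA synthetase, was also lower than in MaP R245W/- tumors (-0.78 ± 0.20 (SE), FDR of 0.0212), at 23.7 ± 7.3 against 40.7 ± 4.81 CPM (SD, n = 7 and 5). That 1 of 20 called between the mutants stands beside 6.49% of all genes called lower. Of 12 translation factors, the initiation factor Mtif3 was higher in MaP R172H/- than in MaP -/- tumors (0.52 ± 0.14 (SE), FDR of 0.0347), and none passed between the mutants, where 2 had an unadjusted p below 0.05, Gfm2 (0.39 ± 0.17 (SE), FDR of 0.156) and Mtif3 (0.32 ± 0.14 (SE), FDR of 0.17). Over all genes tested, 3.67% were called higher against MaP -/- tumors. Between the mutants, 25.9% of all genes had an unadjusted p below 0.05.

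Of 79 proteins of the mitochondrial ribosome, 9 rose and 2 fell in MaP R172H/- relative to MaP -/- tumors, where 3.67% of all genes were higher and 4.73% lower. Their median was 0.21 on the log2 scale. Mrps12 (1.32 ± 0.21 (SE), FDR of 0.00238), Mrpl41 (0.89 ± 0.18 (SE), FDR of 0.00806) and Mrpl10 (0.78 ± 0.15 (SE), FDR of 0.00807) had the smallest p values among those higher, and Mrpl23 (-1.05 ± 0.23 (SE), FDR of 0.0137) and Mrpl43 (-0.77 ± 0.20 (SE), FDR of 0.027) were lower. Between the mutants 1 was higher and 10 lower, with a median of -0.17, where 2.91% of all genes were higher and 6.49% lower. Mrps34 was higher (1.79 ± 0.53 (SE), FDR of 0.0404), at low levels of 0.411 to 3.35 CPM against 0.247 to 0.86 CPM, and its groups overlapped. Mrpl43 (-1.57 ± 0.25 (SE), FDR of 0.000558), Mrpl23 (-1.33 ± 0.23 (SE), FDR of 0.00145) and Mrpl27 (-0.73 ± 0.18 (SE), FDR of 0.0189) were lower.

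Of 9 regulators of mitochondrial biogenesis, none passed against MaP -/- tumors, where 3 had an unadjusted p below 0.05, as did 24.7% of all genes. The nuclear receptor Esrra had the smallest p, with a log2 fold change of 0.80 ± 0.24 (SE) and an FDR of 0.0542, followed by Yy1 (-0.43 ± 0.14 (SE), FDR of 0.0771). Between the mutants Yy1 was called lower in MaP R172H/- tumors (-0.57 ± 0.14 (SE), FDR of 0.0185), where 6.49% of all genes were called lower. The nuclear genes of the respiratory chain and ATP synthase, 78 genes, gave 8 higher and 4 lower against MaP -/- tumors (median of 0.13). These counts stand beside the 3.67% and 4.73% of all genes. The list holds Atp5if1, which encodes an inhibitor of ATP synthase and not a subunit. Log2 fold changes were 1.60 for Atp5if1, 0.83 for Ndufs6, 0.74 for Uqcrb, -1.68 for Ndufb1, -1.09 for Atp5mj and -1.06 for Cox7c. Between the mutants 1 was higher, Atp5if1 at 1.18, and 22 lower, with Ndufb1 at -2.32, Atp5mj at -1.61 and Cox7c at -1.46 and a median of -0.29, beside 2.91% and 6.49% of all genes.

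In MaP R245W/- against MaP -/- tumors no gene of these nuclear lists passed the edgeR test. The medians were 0.17 for maintenance and transcription, 0.17 for processing and stability, 0.20 for modification, 0.10 for tRNA synthetases, 0.13 for translation factors, 0.33 for ribosomal proteins, 0.07 for biogenesis regulators and 0.47 for nuclear genes of the respiratory chain and ATP synthase. Values above 0 were found for 76 of 79 ribosomal proteins and 76 of 78 genes of the respiratory chain and ATP synthase, against 51.8% of all genes tested. An unadjusted p below 0.05 was found for 20 and 37 of them, against 11.8% of all genes. The genes with the smallest p of each list, given with their log2 fold changes, were Polrmt (0.41) and Dna2 (0.33), Ptcd1 (0.41) and Tbrg4 (0.40), Pus1 (0.37) and Mrm1 (0.39), and Cars2 (-0.46) and Vars2 (0.53). In the other lists they were Tsfm (0.27) and Mtrfr (0.36), Mrpl54 (0.61) and Mrpl14 (0.62), Esrra (0.66) and Gabpb1 (0.17), and Ndufa11 (0.83) and Atp5f1e (0.77). Their FDR was between 0.334 and 0.713. Genes of a list are not replicates, and the lists were written with earlier results of these data known. The MaP R245W/- tumors JM1233 and JM1133 had high sums of skeletal muscle markers (1552 and 253 CPM). The part of these markers in the values of the nuclear lists was not tested.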

How the data were processed

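Total RNA from 18 mammary tumors was analysed. Per the labels and the methods of the study, the authors checked reads with FastQC 0.11.9, aligned them with STAR 2.7.10b to GRCm39, counted them with RSEM 1.3.3 and GENCODE M34, and deposited whole-number counts per gene without normalization. RSEM shares multi-mapped reads between genes by default, but whether the deposited counts hold such shares is not given in the sources used here.

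Genes were matched by identifier to GENCODE M39, and 506 of 57126 had no match. Copies of the mitochondrial genome were found in GRCm39 with BLAST 2.17.0, and chromosome 18 was left out. Fits used edgeR 4.0.16 in R 4.3.3 with TMM, filterByExpr and the quasi-likelihood test, with 1 fit per mutant for the comparison with MaP -/- tumors and a fit of all 18 tumors for the comparison of the mutants. Genes at a Benjamini-Hochberg FDR below 0.05 over all genes were called. CPM used TMM library sizes of the 18-tumor fit, and shares and levels per kb used total counts. The fits were tested on simulated data. The members, the gene lists and the tests were chosen with earlier results of these data known. All 13 protein-coding and 2 rRNA genes are named, tRNA genes with a median of 10 counts in a group, and in each nuclear list up to 3 called genes per direction by p or else the 2 with the smallest p. Replicates are separate tumors, of which 2 pairs come from 1 mouse each, and their spread holds no technical repeat. Alternatives were DESeq2 1.42.0 size factors and Wald test, total counts, mitochondrial genes left out of the library size, other filters, a skeletal muscle covariate, the tumors of each mouse added up, copies added, the other fit and each tumor left out. Leaving out both tumors of JM833, or JM1233 and JM1133, was chosen after seeing the data.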

Additional observations from a re-analysis of the deposited data

Results flagged for a closer look

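In groups of 5 to 7 tumors, the gap between the highest or lowest tumor and its neighbour was set against the range of the group (Dixon's test at 95%). Of 81 groups of values examined, 5 had such a tumor, and chance gives about 1 in 20. Of these, 3 came from JM836-T1 in the MaP -/- group: a protein-coding share of 0.846% of counts (next 0.6%), mt-Rnr2 at 26806 CPM (next 14887) and mt-Co2 at 8.51 CPM (next 6.18). Without JM836-T1, the log2 ratio of the protein-coding share was 0.77 for MaP R172H/- and 0.04 for MaP R245W/- over MaP -/- tumors. In JM663-T1 of the MaP -/- group, mt-Nd1 was low at 279 CPM (next 349.6). In JM1133 of the MaP R245W/- group, the ratio of mt-Cytb to mt-Nd1 counts was high at 1.26 (next 0.98). No cause was tested.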

How the results depend on the processing

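The number of mitochondrially encoded genes called was 7 in MaP R172H/- against MaP -/- tumors, 0 in MaP R245W/- against MaP -/- tumors and 10 between the mutants. A DESeq2 Wald test, which also tests genes of low counts, called 12, 1 and 13, where it called 11.4%, 1.71% and 12.4% of all genes and edgeR 8.4%, 0% and 9.4%. The genes it added were mt-Co1, mt-Atp8, mt-Nd3, mt-Tm and mt-Tc in the first comparison, mt-Nd2 in the second, and mt-Rnr1, mt-Tm and mt-Tc in the third. Under the other alternatives the first was 6 to 10, the second 0 and the third 8 to 11. Leaving out each tumor in turn gave 7 to 7, 0 to 0 and 9 to 10 calls. The log2 ratios of the protein-coding share rest on total counts, so the choices of fit, filter and test cannot change them. Under the alternatives that could change them they moved by less than the spread between tumors. With each tumor left out they ran from 0.61 to 0.77, from -0.21 to 0.04 and from 0.68 to 0.86, so the second took either sign. Called log2 fold changes kept their sign in all alternatives that tested the gene. No paired analysis was possible because the replicate numbers name tumors in accession order and pair nothing across groups.

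Depth limits the tRNA genes, mt-Atp8, mt-Atp6, mt-Nd3 and mt-Nd4l, whose counts of 0 to 178 per tumor leave small differences undetectable. In contrast, mt-Nd1, mt-Cytb, mt-Co1 and the rRNAs rest on at least 7025 counts per tumor. For mt-Co2 and mt-Co3, with 18 to 751 counts per tumor, the SEs (0.22 to 0.26) were no larger than those of the rRNAs (0.28 to 0.33). These 2 genes had no window that occurs once in the genome. Platform, read length and molecular subtype follow the MaP R172H/- genotype and cannot be told apart from it.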
